A study of Mus musculus with 8 samples.

Results

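The 8 genes described here, Fibcd1, Spink8, Prox1, C1ql2, Lct, Dsp, Zbtb20 and Npnt, were grouped as transcripts enriched in fields of the hippocampus. They are 8 of the 22000 rows of the count table. RNA of the whole cortex came from 8 mice. By label, 4 were Mef2c heterozygous and 4 Mef2c wild type, and each genotype had 2 males and 2 females with 1 library a mouse. The sources used here give no age, strain, treatment, altered segment of Mef2c or way of dissection. The animal numbers in the titles form a lower and a higher run, each holding 1 mouse per sex and genotype, which are called the first and second series; their meaning is not labelled. RNA integrity numbers were 8.6 to 9.

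Levels are CPM, read counts relative to the TMM-scaled total of a library. Differences between genotypes are log2 fold changes, labelled heterozygous over labelled wild type, and a gene was called at an adjusted p under 0.05 in the quasi-likelihood test of edgeR. Mef2c itself had 1233, 1336, 1391 and 1255 CPM in the libraries labelled heterozygous and 1038, 939, 999 and 1003 CPM in those labelled wild type. It was thus higher in the libraries labelled heterozygous, against what the label would give for a lost transcript, and such a count cannot tell the alleles apart. Each direction below therefore refers to libraries as labelled. Total counts lay between 16092773 and 17841377 reads. All 10 markers of cortical excitatory neurons, such as Slc17a7 and Cux2, were detected in every library, and their summed level was 2875 to 3078 CPM in the libraries labelled heterozygous and 2826 to 3020 CPM in those labelled wild type.

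The hippocampus lies under the neocortex and adjoins it at the medial edge of the cortex. Granule cells of the dentate gyrus send mossy fibres to the pyramidal cells of CA3, which project to those of CA1, and each field is known by its own transcripts. Several of these transcripts also occur in neocortex. Prox1 is known from interneurons that arise in the caudal ganglionic eminence and Zbtb20 from astrocytes, so a count in bulk cortex does not give the cell of origin. In such samples fewer cells of a type and less RNA per cell cannot be told apart.

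The genes were chosen by what is known of their fields and by their genotype difference in these libraries: Fibcd1 was higher and Npnt lower in the libraries labelled heterozygous, and of the members these had the smallest p-values. The genotype differences of the members are therefore a description. The sequences upstream of these 2 genes are shown because they were the members whose genotype groups did not overlap. Each line gives the 250 bases before an annotated start, 5′ to 3′ on the strand of the gene, from RefSeq with build GRCm38.p6. Capitals mark the GC box (GGGCGG on either strand).
Fibcd1, chr2:31846006-31846255, minus strand: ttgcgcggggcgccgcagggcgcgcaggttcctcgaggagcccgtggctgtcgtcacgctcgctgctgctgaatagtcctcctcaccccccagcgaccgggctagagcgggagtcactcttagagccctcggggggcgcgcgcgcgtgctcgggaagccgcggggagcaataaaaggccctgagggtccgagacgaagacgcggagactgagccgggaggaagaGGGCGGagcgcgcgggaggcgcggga
Npnt, chr3:132950292-132950541, minus strand: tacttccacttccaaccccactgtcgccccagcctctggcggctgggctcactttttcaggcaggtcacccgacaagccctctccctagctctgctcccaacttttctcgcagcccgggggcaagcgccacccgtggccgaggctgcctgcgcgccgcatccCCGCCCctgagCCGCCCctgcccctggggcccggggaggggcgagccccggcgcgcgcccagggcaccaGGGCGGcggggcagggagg
The printed window of Fibcd1 held 1 GC box and that of Npnt 3. A GC box stood in 32.7% of the 32851 windows of the same length in the table. Neither printed window held an E-box (CANNTG, found in 66.2% of windows) or a TATA box (TATAAA, in 12.4%) on either strand. The MEF2 consensus (in 2.92% of windows) was absent from both, so no other searched motif overlapped the GC boxes printed. A second annotated start of Npnt had its own window, chr3:132949815-132950064, not printed here. That window held 0 GC boxes and 2 E-boxes, at a GC content of 69.6%. None of the 9 windows of the 7 members found in the table held the MEF2 consensus. The printed windows of Fibcd1 and Npnt had a GC content of 71.6% and 74.0%, against a median of 52.4% over all windows. The windows of Zbtb20 and Lct had 44.8% and 42.8%. These are matches of letters within one window per start and say nothing about binding.

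Fibcd1 codes for a membrane receptor that binds acetylated sugars, and its transcript marks CA1 pyramidal cells. The gene (ENSMUSG00000026841.7) lies on chromosome 2 from 31813290 to 31846005 on the minus strand of GRCm38, and no other annotated gene overlaps it. Its level was 15.8, 15.2, 21.8 and 18.0 CPM in replicates 1 to 4 labelled heterozygous and 9.95, 9.21, 11.2 and 11.2 CPM in those labelled wild type. The lowest library labelled heterozygous lay above the highest labelled wild type. The group means were 17.7 ± 2.99 and 10.4 ± 0.976 CPM (SD, n = 4 each). The log2 fold change was 0.77 ± 0.13 (SE), and the edgeR fit over all genes gave an adjusted p of 0.00462. The difference stood at 0.66 in females and 0.88 in males, and at 0.69 in the first and 0.83 in the second series. Leaving out any 1 library gave values from 0.65 to 0.84.

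Npnt codes for nephronectin, a protein of the extracellular matrix that integrins bind. It belongs to the set but to none of the field lists described below. The gene (ENSMUSG00000040998.18) lies on chromosome 3 from 132881745 to 132950291, minus strand, and Gm23196, annotated as not protein-coding, overlaps it on the other strand. Its level was 33.9, 31.4, 29.9 and 42.8 CPM in the libraries labelled heterozygous and 65.2, 61.8, 48.8 and 48.2 CPM in those labelled wild type. The groups did not overlap, with the highest library labelled heterozygous, replicate 4, closest to the others. The group means were 34.5 ± 5.75 and 56.0 ± 8.78 CPM (SD, n = 4 each). The log2 fold change was -0.70 ± 0.13 (SE), opposite in sign to that of Fibcd1. The edgeR adjusted p was 0.0692, and it was 0.00469 without heterozygous replicate 4, 0.00676 without wild type replicate 4 and 2.03e-06 in the DESeq2 Wald test, so the call depended on these choices. Over all 16 alternatives the adjusted p ran from 2.03e-06 to 0.218 and the difference from -0.82 to -0.61. It was -0.96 in the first and -0.42 in the second series. That difference between the series did not pass (edgeR interaction term, unadjusted p 0.00471, adjusted p 0.888).

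**Figure D1:**
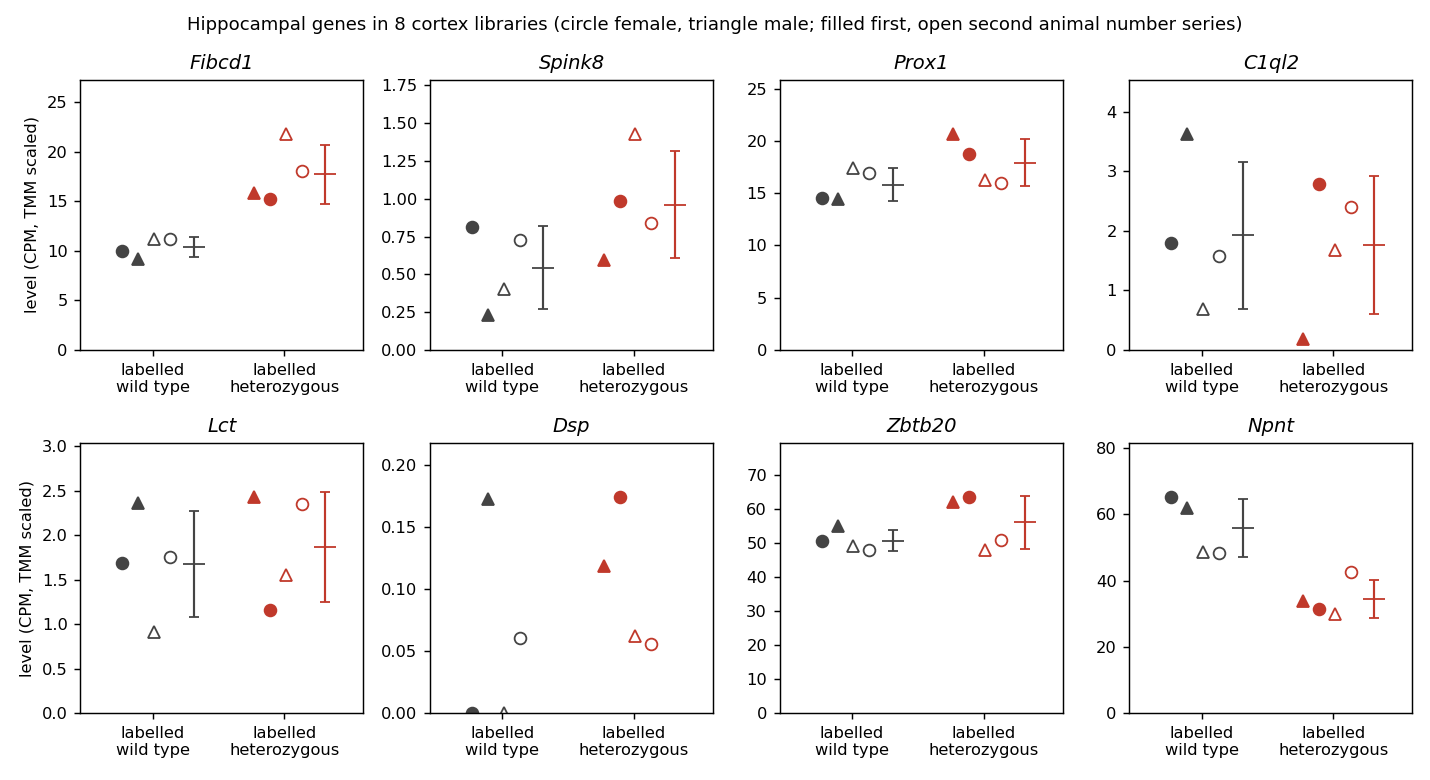
Level in CPM (vertical axes, each from 0 and on its own scale) of the 8 genes in the 4 libraries labelled wild type (grey) and the 4 labelled heterozygous (red); circles are females, triangles males, filled symbols the first and open symbols the second series of animal numbers, and bars the mean ± SD, left out for Dsp, which had at most 3 reads per library. The groups are apart for Fibcd1 and, in the other direction, for Npnt, and overlap for the other 6 genes.

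Of the 7 members that passed the filter on low counts, 1, Fibcd1, was called for genotype, against 0.267% of the 13879 genes tested (0.13% higher and 0.137% lower). In 2 of the 7, Fibcd1 and Npnt, the groups did not overlap, as was the case for 4.55% of all genes tested (2.16% with the libraries labelled heterozygous higher and 2.38% with them lower). Nothing is read from these shares, since this contrast was known when the genes were chosen. The remaining member, Dsp, did not pass the filter.

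Spink8 codes for a protease inhibitor of the Kazal type and, like Fibcd1, marks CA1. It held 10, 17, 23 and 15 reads in replicates 1 to 4 labelled heterozygous and 14, 4, 7 and 12 in those labelled wild type. The groups overlapped, at means of 0.962 ± 0.351 CPM and 0.543 ± 0.274 CPM (SD, n = 4 each). The log2 fold change was 0.85 ± 0.45 (SE), and its edgeR adjusted p was 0.746. Without heterozygous replicate 3, its highest library, it was 0.45. Spink8 reached the filter's 10 reads in 4 libraries labelled heterozygous and in 2 labelled wild type, so it passed mainly through the group in which it was higher.

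Prox1, C1ql2, Lct and Dsp are transcripts of dentate granule cells. Prox1 codes for the homeobox factor that sets the identity of these cells. Its level was 20.7, 18.7, 16.2 and 16.0 CPM in the libraries labelled heterozygous and 14.5, 14.5, 17.4 and 17.0 CPM in those labelled wild type. The 2 highest libraries were those labelled heterozygous of the first series and the 2 lowest those labelled wild type of the first series. Over all 8 libraries the log2 fold change was 0.18 ± 0.11 (SE, edgeR adjusted p 0.841), and without heterozygous replicate 1 it was 0.098. It was 0.44 in the first and -0.09 in the second series, a difference that did not pass (edgeR interaction term, unadjusted p 0.0137, adjusted p 0.999). Prox1os and Gm28172 overlap Prox1 on the opposite strand, and since the strand setting of the counting is not given, their reads cannot be told apart from those of Prox1.

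C1ql2 codes for a secreted protein with a C1q domain, which mossy fibres release to gather kainate receptors at their synapses. It held 3, 48, 27 and 43 reads in replicates 1 to 4 labelled heterozygous and 31, 63, 12 and 26 in those labelled wild type. The highest library had 21.0 times the reads of the lowest, and both extremes, heterozygous replicate 1 and wild type replicate 2, were males of the first series. Within the genotypes its counts varied by 13.2 times what counting alone gives (chi-square per degree of freedom), where the median over all tested genes was 3.49. Among the tested members this measure ran from 2.26 for Spink8 to 20.1 for Npnt. At equal relative spread it rises with the number of reads. The log2 fold change of C1ql2 between the genotypes was -0.22 ± 0.70 (SE). It was 0.24 without heterozygous replicate 1 and 0.56 without wild type replicate 2, so the data give no direction.

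Lct codes for lactase, the enzyme that splits milk sugar in the gut, and its transcript is also known from granule cells. It held 41, 20, 25 and 42 reads in the libraries labelled heterozygous and 29, 41, 16 and 29 in those labelled wild type. The log2 fold change was 0.16 ± 0.33 (SE), and it lay between -0.083 and -0.010 when heterozygous replicate 1, heterozygous replicate 4 or wild type replicate 3 was left out. Heterozygous replicate 1, which held the fewest C1ql2 reads, 3, had the highest Lct level, 2.43 CPM, and the highest Prox1 level, 20.7 CPM, of all libraries. For Lct that lead was within counting error, with 2.36 CPM in wild type replicate 2 and 2.35 CPM in heterozygous replicate 4. Prox1 is also known from cortical interneurons.

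Dsp codes for desmoplakin, the protein that ties desmosomes to intermediate filaments, and is a further marker of granule cells. Gm10129 overlaps the gene on the other strand. It held 2, 3, 1 and 1 reads in the libraries labelled heterozygous and 0, 3, 0 and 1 in those labelled wild type. Every library was at or under 3 reads, the limit that a count of 0 allows, which corresponds to 0.168 to 0.186 CPM, so no fold is given. Of the 8 desmosome genes, Dsp and Dsg1c had at most 3 reads in each library, and none of the 5 tested was called by edgeR, DESeq2 or limma-voom (1 at an unadjusted p under 0.05). Jup and Pkp4, which also serve other junctions, had 880 to 1128 and 3617 to 4264 reads per library.

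Zbtb20 codes for a zinc finger repressor needed for the identity of hippocampal pyramidal neurons. Its level was 62.0, 63.4, 48.0 and 50.9 CPM in the libraries labelled heterozygous and 50.6, 54.9, 49.1 and 47.9 CPM in those labelled wild type. Both libraries labelled heterozygous of the first series lay above all others, and those of the second series lay among the libraries labelled wild type. The log2 fold change was 0.15 ± 0.09 (SE, edgeR adjusted p 0.799), with 0.25 in the first and 0.03 in the second series. Leaving out heterozygous replicate 1 gave 0.086, replicate 2 of that group 0.069 and replicate 3 of it 0.23. The summed levels of striatal, microglial and desmosome genes were also highest in heterozygous replicates 1 and 2. Their part in the levels of Zbtb20 and Prox1 was not tested. The gene spans chromosome 16 from 42875881 to 43642602, and 9 genes annotated as not protein-coding overlap it, 4 of them on the opposite strand.

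**Figure D2:**
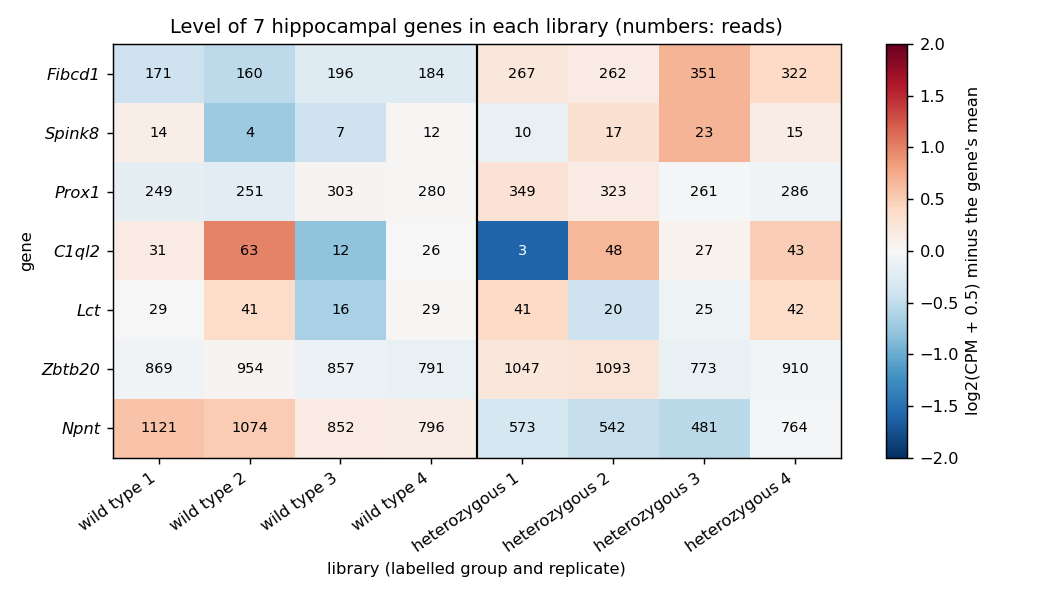
Level of the 7 tested genes (rows) in each library (columns, labelled wild type left of the line and labelled heterozygous right), coloured by log2(CPM + 0.5) minus the mean of the gene over the 8 libraries, with the read count printed in each cell. The rows of Fibcd1 and Npnt change at the line in opposite directions, and the C1ql2 row holds both the deepest low, 3 reads in heterozygous replicate 1, and the strongest high, 63 reads in wild type replicate 2.

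Per kilobase of annotated exon, the order of the levels was Npnt (9.01 CPM per kb), Fibcd1 (2.96), Prox1 (2.01), Zbtb20 (1.74), C1ql2 (0.921), Spink8 (0.917), Lct (0.277) and Dsp (0.00833). Npnt was above Fibcd1, Fibcd1 above Prox1, and Lct above Dsp in 8 of 8 libraries. Prox1 was above Zbtb20, Zbtb20 above C1ql2, and Spink8 above Lct in 7 of 8. C1ql2 and Spink8 were not separated, with C1ql2 above in 3 of 8. The lengths join all annotated exons of GENCODE release M21, 30730 bases for Zbtb20 and 821 for Spink8, and a level per kilobase depends on them.

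Whether the genes move together from mouse to mouse was tested without the genotype contrast, by subtracting the mean of each genotype from log2(CPM + 0.5) and correlating the 7 tested genes over the 8 libraries. The question behind it was whether the genes rise and fall in the same libraries, as hippocampal tissue carried into the dissection would give. Of the 21 pairs, 8 had a Pearson r above 0 and 13 below 0, with a median of -0.23. No pair passed a Benjamini-Hochberg adjusted p under 0.05 in the two-sided exact permutation test within genotype, by Pearson r or by Spearman rho, and 1 had an unadjusted p under 0.05. The 576 orders of this test allow a smallest p of 0.00174. On its own a pair could pass only at that value, since an exact permutation p of 0.00347 gave an adjusted p of 0.0729. That no pair passed therefore says little about any single pair. In rows as sparse as those of Spink8, C1ql2 and Lct, counting error alone weakens a correlation.

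Fibcd1 and Spink8, the CA1 genes, had r = 0.58 and rho = 0.48 (exact permutation p 0.144 and 0.273, adjusted 0.541 and 0.709), and r = 0.53 without the 2 libraries farthest from the median of Fibcd1, heterozygous replicates 2 and 3. Among the granule cell genes, Prox1 and C1ql2 had r = -0.73 and rho = -0.74 (exact permutation p 0.0590 and 0.0503, adjusted 0.541 and 0.529). This relation rested on heterozygous replicate 1 and wild type replicate 3, without which r was -0.19. Prox1 and Lct had r = -0.29 and C1ql2 and Lct r = 0.078. The highest r of all pairs, 0.63, was that of Npnt and Lct (rho = 0.45, exact permutation p 0.155 and 0.323, adjusted 0.541 and 0.709), and it was 0.71 without heterozygous replicate 4 and wild type replicate 1.

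The most extreme pair was Fibcd1 and Zbtb20, with r = -0.94 and rho = -0.88 (exact permutation p 0.00347 and 0.00694, adjusted 0.0729 and 0.146), which does not pass. Among the libraries labelled heterozygous, more Fibcd1 went with less Zbtb20 throughout. Among those labelled wild type, replicate 3 was above replicate 4 in both genes, at 11.23 against 11.15 CPM of Fibcd1 and 49.1 against 47.9 CPM of Zbtb20. Without heterozygous replicates 2 and 3 r was -0.87. The second series had more Fibcd1 and less Zbtb20, and either series holds 4 libraries, too few for a correlation of its own. With the means of genotype and series both subtracted, an alternative chosen after seeing the data, r was -0.81, and without any centring it was 0.087. Fibcd1 and Npnt had r = -0.40 within genotype (rho = -0.48, exact permutation p 0.377 and 0.273, adjusted 0.841 and 0.709) and r = -0.88 when the genotype difference was left in.

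**Figure D3:**
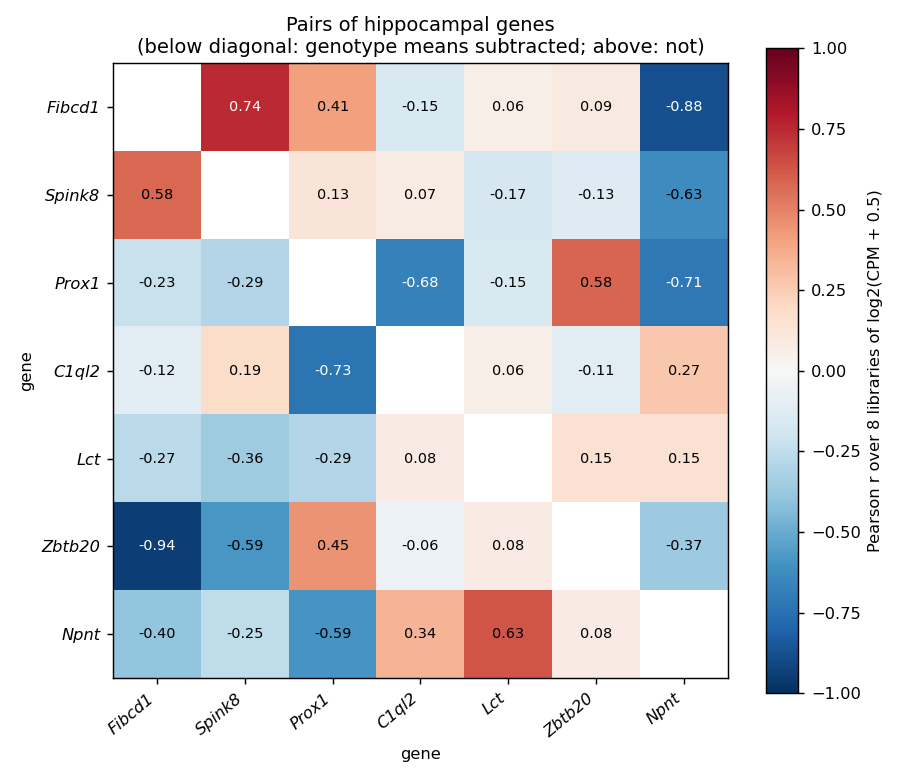
Pearson r of each pair of the 7 tested genes over 8 libraries of log2(CPM + 0.5), on a colour scale from -1 to 1; the cells below the diagonal have the genotype means subtracted and those above do not. Below the diagonal 8 of 21 pairs are above 0, and the deepest blue is that of Fibcd1 and Zbtb20 at -0.94.

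The genes with the pattern most like a member, by Pearson r over the 8 libraries with the genotype means subtracted, were searched among 12589 genes with a mean of at least 1 on the log2 CPM scale. For Fibcd1 they were Mycl (r = 0.98) and Fancb (0.98), and for Npnt Rit2 (0.96) and Ogfod2 (0.95). For Spink8 they were Mknk1 (0.98) and Ndp (0.97), for Prox1 Flna (0.97) and Tmco3 (0.96), and for Zbtb20 Ldlrad4 (0.98). For C1ql2 they were Ogfrl1 (0.99) and Dgkd (0.97), and for Lct Rrp8 (0.99) and Tns3 (0.98). None of them is a member, and with so many genes and 8 libraries high values are common: 47 genes had an r above 0.9 to Fibcd1 and 85 to Zbtb20. Seen from Fibcd1, Spink8 stood above 88.3% of all tested genes by r and Zbtb20 above 0.173%. Seen from Prox1, C1ql2 stood above 2.74%.

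Sex and series are contrasts that the choice of the genes did not use. No member was called for sex (males minus females) by edgeR's quasi-likelihood test, where 0.0288% of all tested genes were (0.0144% higher and 0.0144% lower in males), and none had an unadjusted p under 0.05 or was called by the DESeq2 Wald test or limma-voom. The log2 differences ran from -0.51 ± 0.70 (SE) for C1ql2 to 0.07 ± 0.13 for Fibcd1, and that of Npnt was -0.12 ± 0.13. Single libraries moved both: C1ql2 had -0.035 without heterozygous replicate 1 and -1.42 without wild type replicate 2, and Npnt -0.015 without heterozygous replicate 4 and -0.23 without wild type replicate 4. For the interaction of genotype and sex no gene of the table was called (percent called 0, 366 genes at an unadjusted p under 0.05), and no member had an unadjusted p under 0.05 or a call in the DESeq2 Wald test or limma-voom. The widest interaction was that of C1ql2, with a male effect minus female effect of -1.84 ± 1.22 (SE). It was -4.16 without heterozygous replicate 3 and -0.20 without wild type replicate 2.

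Between the series, 0.382% of all tested genes were called (0.173% higher and 0.209% lower in the second) and no member was, by edgeR, the DESeq2 Wald test or limma-voom. Of the 7 members, 2 had an unadjusted p under 0.05, as did 1413 of the 13879 genes tested. Zbtb20 was lower in the second series by a log2 difference of -0.23 ± 0.07 (SE), with an edgeR adjusted p of 0.157, and Fibcd1 was higher by 0.30 ± 0.11, with an adjusted p of 0.308. The other members lay between -0.41 ± 0.76 for C1ql2 and 0.38 ± 0.45 for Spink8.

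Other genes of the hippocampal fields were described with lists drawn from general knowledge after earlier results were known, so a list's direction is not independent support for a member's. Their median log2 fold changes between the genotypes are set beside a median of -0.001 over all tested genes, of which 49.5% were above 0. Counts at an unadjusted p under 0.05 are set beside 1005 such genes among the 13879 tested, and counts of called genes beside 0.267% of them. Of the 6 genes of CA1, 2 were called, Fibcd1 and Wfs1, an endoplasmic reticulum protein also known from upper cortical layers, and both rose. The median of the list was 0.31, and all 6 were above 0. These values include Fibcd1, chosen with its difference known, and Spink8, which passed the filter mainly through the libraries labelled heterozygous. Wfs1 had 150.5 ± 16.6 CPM against 111 ± 5.95 CPM (SD, n = 4 each), a log2 fold change of 0.44 ± 0.07 (SE, edgeR adjusted p 0.00265). Of the genes not called, Man1a had 0.12, Pou3f1 0.13 and Nov 0.19. The summed level of the list was 359 CPM in heterozygous replicate 1, 440 to 443 CPM in the other libraries labelled heterozygous and 334 to 355 CPM in those labelled wild type. Within genotype the r of Fibcd1 and Wfs1 was 0.24 and rho 0.14. The exact permutation p was 0.670 and 0.795, adjusted over 5 CA1 genes 0.838 and 0.977. With the other genes of the list, the r of Fibcd1 was 0.58 for Spink8, 0.54 for Nov, 0.0063 for Pou3f1 and -0.64 for Man1a. None of the 5 pairs had an adjusted p under 0.05. Without heterozygous replicates 2 and 3 the r was 0.77 for Wfs1 and 0.53 for Spink8. It was then 0.68 for Nov, -0.0037 for Pou3f1 and -0.56 for Man1a. The list thus held pairs on both sides of 0.

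Of the 9 dentate granule cell genes, 8 were tested and none was called by edgeR, DESeq2 or limma-voom, with 1 at an unadjusted p under 0.05, the transcription factor gene Neurod1 (19.7 ± 0.499 against 23.3 ± 2.13 CPM, SD, n = 4 each, log2 fold change -0.25 ± 0.09 SE). The median was -0.0052, with 4 of 8 above 0. Calb1, which codes for a calcium buffer, had -0.12 ± 0.06, and Tdo2, a tryptophan-degrading enzyme gene, had 8 to 19 reads per library and 0.17. The summed levels overlapped, at 306 to 318 CPM in the libraries labelled heterozygous and 294 to 353 CPM in those labelled wild type. Most of this sum came from Calb1, at means of 168 against 182 CPM, and C1ql3, at 98.5 against 91.6 CPM. It therefore says little about the sparser genes of the list.

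Of the CA2 genes, 5 of 6 were tested and none was called by edgeR, DESeq2 or limma-voom, with 1 at an unadjusted p under 0.05. The median was -0.04. Rgs14, a regulator of G protein signalling, had 52.4 ± 6.09 against 43.1 ± 5.55 CPM (SD, n = 4 each) and Cacng5 7.92 ± 2.07 against 6.16 ± 1.32 CPM. The vasopressin receptor gene Avpr1b, a defining CA2 marker, held 0 reads in every library. Of the CA3 genes, 5 of 6 were tested, none was called by the same 3 tools and none had an unadjusted p under 0.05. The median was -0.04. Bok had a log2 fold change of 0.38 ± 0.18 (SE) and Npy2r, a neuropeptide Y receptor gene, 0.40 ± 0.20, while Grik4, a kainate receptor subunit gene, had -0.04. Iyd, a further CA3 marker, had 0 to 4 reads per library. Of the 4 genes of several fields, none was called by those tools and none had an unadjusted p under 0.05. The median was 0.15, and all 4, Zbtb20 among them, were above 0. Nr3c2, the mineralocorticoid receptor gene, stood at 0.15 ± 0.08 and Klk8 at 0.63 from 8 to 19 reads.

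**Figure D4:**
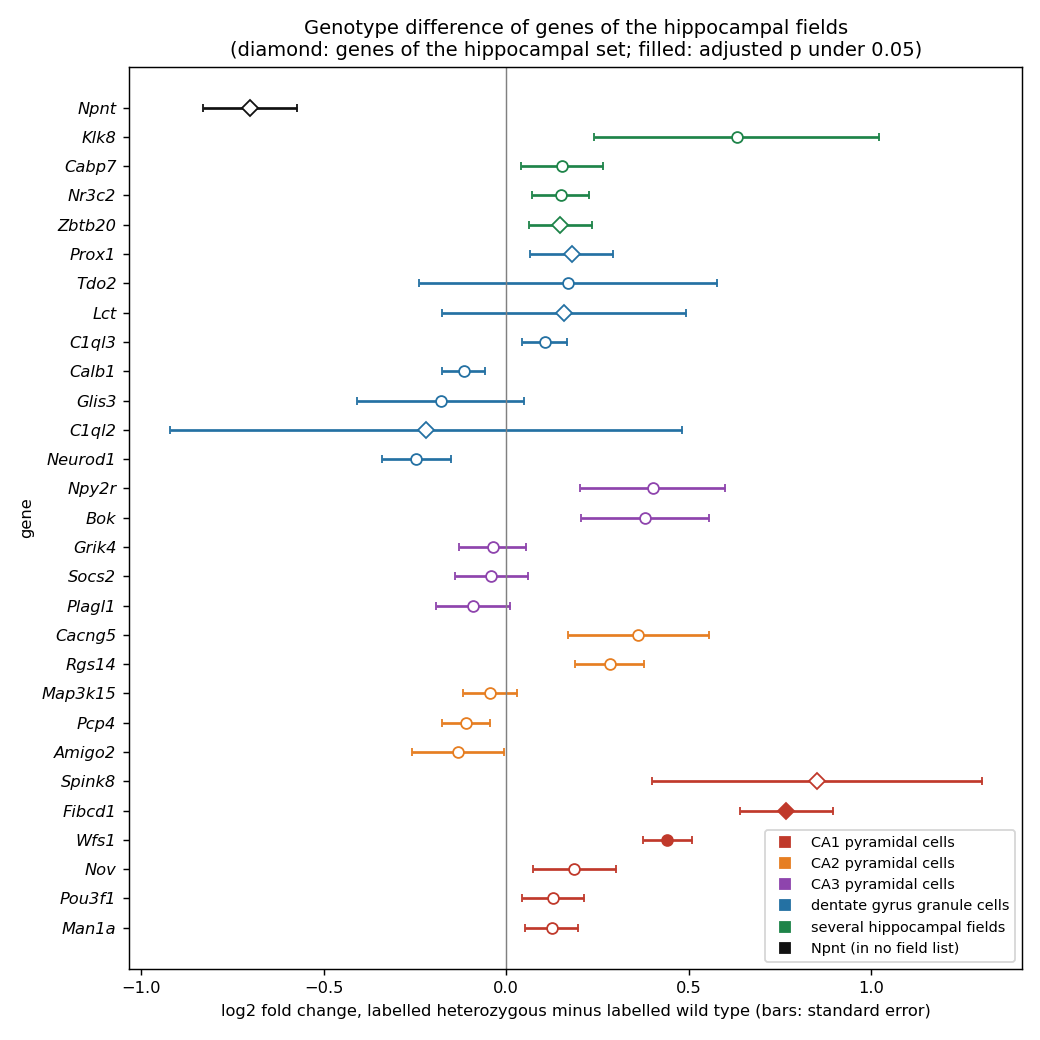
Log2 fold change (horizontal axis, labelled heterozygous minus labelled wild type, bars: standard error) of the tested genes of each hippocampal field list and of Npnt (vertical axis, coloured by list); diamonds are genes of the set described here and filled symbols passed an adjusted p under 0.05. Fibcd1 and Wfs1 of the CA1 list are filled, the dentate genes lie on both sides of 0, and Npnt stands at -0.70.

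Partners of the members came next. Of the genes of C1QL proteins and their partners, 7 were tested and none was called by edgeR, DESeq2 or limma-voom, with 1 at an unadjusted p under 0.05 and a median of -0.07. C1ql3, which codes for a related secreted protein, had 98.5 ± 1.89 against 91.6 ± 7.05 CPM (SD, n = 4 each), and Nrxn3, which codes for a presynaptic neurexin, 213 ± 5.66 against 231 ± 7.65 CPM. Among nephronectin and its integrin partners, 5 were tested and none was called by edgeR or limma-voom, with 3 at an unadjusted p under 0.05, while the DESeq2 Wald test called Npnt. The median was 0.04. Itga8, the integrin chain that nephronectin binds, had 9.38 against 7.51 CPM (log2 fold change 0.32, edgeR adjusted p 0.654), and Itgav 101 ± 3.31 against 112 ± 6.39 CPM (SD, n = 4 each).

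Cortical cells that share transcripts with the members were described in the same way. Of 9 genes of interneurons from the caudal ganglionic eminence, which hold Prox1, none was called by edgeR or limma-voom, 3 had an unadjusted p under 0.05, and the DESeq2 Wald test called Lamp5. Lamp5 had 201 ± 6.51 against 242 ± 23.5 CPM and Calb2 14.2 ± 4.37 against 10.01 ± 0.844 CPM (SD, n = 4 each). The summed level of the list was 480 to 505 CPM in the libraries labelled heterozygous and 500.5 to 548 CPM in those labelled wild type. Of 8 astrocyte genes none was called by edgeR, DESeq2 or limma-voom (1 at an unadjusted p under 0.05). Their summed level was 3619 to 3969 CPM against 3870 to 3971 CPM. It was 3969 and 3897 CPM in heterozygous replicates 1 and 2 and 3619 and 3742 CPM in replicates 3 and 4. Gfap stood at 111 ± 22.4 against 86.6 ± 3.51 CPM and Slc1a2 at 2676 ± 144 against 2821 ± 18.1 CPM (SD, n = 4 each). Their part in the levels of Prox1 and Zbtb20 was not tested.

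Markers of tissue next to cortex and of non-neuronal cells completed the lists. The 11 tested striatal genes had a median of 0.22 with all above 0 and none called by edgeR, DESeq2 or limma-voom (1 at an unadjusted p under 0.05). Their summed level was 475 and 494 CPM in heterozygous replicates 1 and 2, 385 and 345 CPM in replicates 3 and 4, and 363 to 412 CPM in the libraries labelled wild type. The 2 libraries with the highest striatal sums were also the 2 highest in Prox1 and in Zbtb20. This was not particular to striatal genes. The same 2 libraries had the highest sums of microglial genes, 443 and 445 CPM, and of desmosome genes, 328 and 309 CPM. Of 9 thalamic genes 1, Ramp3, fell (log2 fold change -0.71 ± 0.14 SE, edgeR adjusted p 0.0190), with a list median of 0.07 and summed levels of 163 to 180 CPM against 176 to 187 CPM. Choroid plexus is the secretory tissue of the ventricles. The summed level of its 8 genes was 3.44 to 7.02 CPM against 3.15 to 4.97 CPM, and Otx2 had at most 3 reads per library. The 3 tested genes had a median of 0.56 with all above 0, from few reads, such as 1 to 39 per library for Ttr. None of the 3 was called by the same tools or had an unadjusted p under 0.05. Of 9 leptomeningeal genes none was called by them (2 at an unadjusted p under 0.05), at a median of 0.18 and summed levels of 485 to 750.2 CPM against 541 to 655 CPM. Microglia had 3 of 8 genes called by edgeR, Ctss, C1qb and C1qc, all higher. DESeq2 called the same 3 and limma-voom also 3, and 6 had an unadjusted p under 0.05. The median was 0.31 (summed level 394 to 445 CPM against 348 to 377 CPM). Of 5 genes of red blood cells none was called by the same tools (2 at an unadjusted p under 0.05), at a median of -0.40 and 35.2 to 74.7 CPM against 63.9 to 112 CPM. In the list of cortical excitatory neurons 1 of 10 genes, Rasgrf2, fell (log2 fold change -0.33 ± 0.06 SE, edgeR adjusted p 0.00636), at a median of 0.06 and with 4 at an unadjusted p under 0.05. The DESeq2 Wald test called 2, Rasgrf2 and Neurod6, whose log2 fold change was 0.25 ± 0.06 (SE, edgeR adjusted p 0.109). The part of these lists in the levels of the members was not tested.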

How the data were processed

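Messenger RNA of the cortex of 8 mice was sequenced after enrichment for polyadenylated RNA. The values the authors deposited are raw counts of reads, with a row per gene symbol and a column per mouse. The submitters' processing notes, which state no role or order, name STAR 2.5.2b, HTSeq and mm10. Annotation, strand setting and filters: not given in the sources used here. Replicates were numbered in accession order within the genotype label.

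Of 22000 rows, 13879 passed edgeR's filterByExpr at a minimum count of 10, which kept 99.95% of the reads. Libraries were scaled by TMM and tested with edgeR 4.0.16 (quasi-likelihood F-test, robust, R 4.3.3), with sex and genotype as terms and Benjamini-Hochberg adjustment over all genes at 0.05; series was added for its own contrast. The pipeline was tested on simulated counts. Correlations used a pseudocount of 0.5 CPM. The edgeR p-values set a difference against the spread between these mice, estimated with the help of all genes. Those of the correlations come from reordering the libraries within genotype. Total counts of 16092773 to 17841377 set the counting error, and count-based limits cover that error only, not the spread between mice. Alternatives used DESeq2 1.42.0, limma 3.58.1, other scalings, filters, terms and each library left out.

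Positions come from GENCODE M21 (GRCm38). Genes named are the 8 members, Mef2c, up to 4 called genes per list by smallest p (otherwise up to 2) and the 2 genes most like each member, of which 1 for Zbtb20 is not reported here; further list genes, such as markers at or near 0 reads and Man1a, Tdo2, Klk8, Grik4, Jup, Otx2 and Slc17a7, were named after their values were seen. Members and lists were chosen with earlier results of these data known.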

Additional observations from a re-analysis of the deposited data

How the results depend on the processing

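The replicate numbers only name the libraries, so no fit was blocked on them. Sex and series together match each library labelled heterozygous with 1 labelled wild type, and the fit with both as terms is given among the counts. Fibcd1 kept its direction and its call in all 16 alternatives (adjusted p from 7.00e-05 to 0.0434), and Prox1, Zbtb20 and Spink8 kept their genotype direction without a call in theirs. Sign changes in the differences of uncalled members came only from leaving out single libraries. So reduced, the log2 genotype difference ran from -0.46 to 0.56 for C1ql2 and from -0.083 to 0.42 for Lct. The sex difference ran from -0.056 to 0.15 for Fibcd1, -0.029 to 0.11 for Prox1, -0.051 to 0.095 for Zbtb20 and -0.20 to 0.29 for Lct. The interaction with sex ran from -0.027 to 0.44 for Fibcd1, -0.42 to 0.059 for Npnt, -0.12 to 0.23 for Prox1, -0.33 to 0.039 for Zbtb20 and -0.27 to 1.08 for Lct, and the series difference from -0.11 to 0.064 for Prox1, -0.076 to 0.75 for Spink8, -0.91 to 0.46 for C1ql2 and -0.58 to 0.10 for Lct.

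The number of all genes called for genotype, 37, was 82 without a filter, 80 in the DESeq2 Wald test, 72 with the series as a term beside sex and 19 to 80 with 1 library left out (80 without heterozygous replicate 1, 24 without heterozygous replicate 2, 23 without wild type replicate 1 and 19 without wild type replicate 2). For sex it was 4, and 2 (without wild type replicate 3) to 6 with 1 library left out. For the interaction it was 0, and 1 without heterozygous replicate 2 or wild type replicate 4 and 2 without heterozygous replicate 3. For the series it was 53, and 11 to 77 (23, 27, 17 and 11 without heterozygous replicates 1 to 4), with 95 without a filter and 32 without covariates. The cause was not tested. The number of correlated pairs was 0 in all 15 alternatives. With sex or series also centred, however, the possible orders are too few for any pair to pass. With 1 library left out they are too few for a single pair to pass on its own. Without centring, r of Fibcd1 and Zbtb20 was 0.087, and r also changed sign for Fibcd1 with Prox1 (0.41) and Lct (0.056), Npnt with Zbtb20 (-0.37) and Prox1 with Spink8 (0.13). Depth limits Spink8, C1ql2, Lct and above all Dsp.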
